A study of Mus musculus with 12 samples.

Results

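Keratins are the intermediate filament proteins of epithelial cells, and 10 of them were followed here in mouse pancreatic tumours. They were all array probes, control probes left out, whose gene name was Krt7, Krt8, Krt18, Krt19, Krt20 or Krt23, grouped as ductal-type, or Krt5, Krt14, Krt6a or Krt17, grouped as basal-type. The rule used names and no measured value. It found 10 genes with 11 probes, of 27351 genes tested and 56605 probes on the array, and all 10 genes passed the filter on dim probes.

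A keratin filament is built from pairs of a type I and a type II keratin, and which pair a cell makes follows its kind. Simple epithelia such as the pancreatic duct carry Krt8 and Krt7 (type II) with Krt18, Krt19, Krt20 and Krt23 (type I). The basal layer of stratified epithelia carries Krt5 with Krt14, and Krt6a and Krt17 appear in stressed, wounded or hyperproliferative squamous epithelium. Pancreatic cancers keep ductal keratins, and squamous or basal-like forms of the disease add basal ones.

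The tumours came from female C57BL/6 mice, 8 weeks old by the labels, that bore orthotopic KP tumours. The 6 tumours labelled FAKi had been exposed for 14 days to an inhibitor of focal adhesion kinase, an integrin-linked tyrosine kinase, given by gavage at 50 mg/kg. The 6 vehicle tumours were from mice of the same strain, age and tumour type that were given vehicle for the same 14 days. Total RNA was taken from whole tumour tissue, so that fewer cells of a type and less RNA per cell cannot be told apart, and the labels say neither what KP stands for nor whether each replicate is 1 mouse. If the replicates share mice, p-values measure only the spread between these samples.

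Levels are the log2 of the background-subtracted red signal minus the 75th percentile of log2 signal on the same array, so that a level of 0 equals that percentile. They compare tumours for 1 probe and do not compare genes. The 12 arrays had a 75th percentile of 11.84 (vehicle 6) to 13.90 (vehicle 1), 66.6% to 76.1% of spots well above background and 0 saturated spots, and their number limits the precision. All 6 ductal-type keratins were well above background on all 12 arrays, with Krt8 between the 97.1 and 99.5 percentiles of its array. So were the basal-type Krt5, Krt14 and Krt17 and 28 of 45 other keratin genes, and this flag does not identify a cell type. The arrays lay on 5 slides. Slide 1 held FAKi 5 with vehicle 3 and 5, slide 4 held FAKi 1 with vehicle 2 and 6, and the other slides held 1 group each. Vehicle 5 or vehicle 6 was the extreme tumour in several results below, and values without both are given where they moved a result, a choice made after the data were seen. By Dixon's test, 0 of 32 groups of 6 values examined had a tumour standing apart. The nearest was vehicle 5 for Krt20, with a gap of 0.622 of the range against a critical value of 0.625.

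The 60-base probes below are shown because these 3 keratins varied together over the tumours. They are array sequences, 5′ to 3′, and no base is marked.
Krt7: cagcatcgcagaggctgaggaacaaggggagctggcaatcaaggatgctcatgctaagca
Krt19: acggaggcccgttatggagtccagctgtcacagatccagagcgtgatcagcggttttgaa
Krt42: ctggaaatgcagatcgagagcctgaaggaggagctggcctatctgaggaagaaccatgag
By the array's annotation on build mm9, the Krt7 probe lies at chr15:101253718-101253777 on the plus strand. The other positions are on the minus strand, at chr11:100002392-100002451 for Krt19 and chr11:100128252-100128311 for Krt42. The exon or UTR that a probe lies in was not looked up, because no annotation of that build was used. The 11 keratin probes shared exact stretches of at most 12 to 17 bases with any probe of another gene.

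Krt8 had a second probe, separated from the other by 16 bases on the minus strand, and a 30-base part of it at chr15:101827148-101827177 (mm9) carries AATAAA, the usual polyadenylation signal, in capitals. It is shown because the brightest Krt8 probe and this one gave different spreads.
Krt8: tgtattttctaaAATAAAgcctcagctggc

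None of the 10 keratins differed between FAKi and vehicle tumours beyond the spread between tumours. In limma with Benjamini-Hochberg adjustment over all genes, 0 of 10 passed an adjusted p of 0.05, as did 0 of all 27351 genes (0%), and the adjusted p was 0.9995 for each keratin. At an unadjusted p under 0.05 there were 0 keratins, against 1311 of all genes (4.79%), and with array weights, a further limma fit, 0 keratins and 2 genes were called. The groups overlapped for every keratin, and over all genes with a value on each array they did not overlap for 65 of 27241 (0.239%). The difference was below 0 for 3 of 6 ductal-type and 3 of 4 basal-type keratins, with 39.2% of all genes below 0. The median difference was 0.01 for the ductal-type and −0.59 for the basal-type keratins, against 0.09 over all genes.

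**Figure D1:**
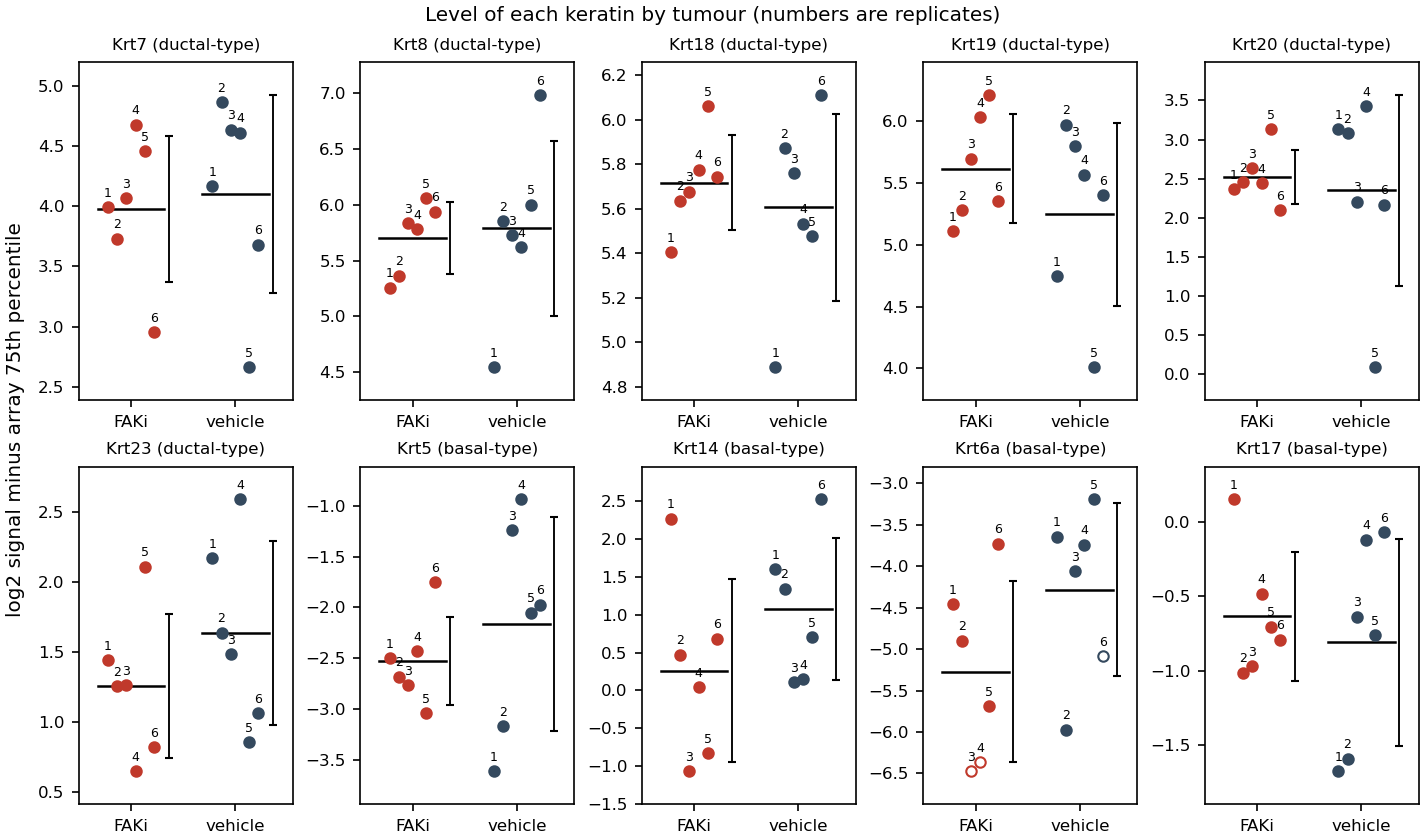
Level of each keratin (log2 signal minus the array's 75th percentile) in 6 FAKi tumours (left, red) and 6 vehicle tumours (right, dark blue), 1 point per tumour with its replicate number. Lines are means and bars are SD, open points were not well above background, and each axis has its own range. The groups overlap in all 10 panels, and vehicle 5 is the lowest tumour for Krt7, Krt19 and Krt20.

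Among the ductal-type keratins, Krt7 and Krt19 are the pair most often used to mark ductal cells. Krt7 lay between 2.95 and 4.68 (median 4.03) in FAKi tumours, against 2.66 to 4.86 (median 4.39) in vehicle tumours. FAKi 6 and vehicle 5 were the low tumours of their groups, and the other 10 lay within 3.68 to 4.86. The difference was −0.12 (SE 0.39, 95% interval −0.97 to 0.72). Krt19, a type I keratin with a very short tail, lay between 5.11 and 6.22 (median 5.53) in FAKi tumours, against 4.01 to 5.97 (median 5.49) in vehicle tumours. Vehicle 5 was again lowest, and the difference was 0.37 (SE 0.34, 95% interval −0.37 to 1.1). The vehicle mean was exceeded by 5 of 6 FAKi tumours. Without vehicle 5 and vehicle 6 the difference was −0.59 for Krt7 and 0.094 for Krt19, with limma adjusted p-values of 0.362 and 0.893.

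Krt8 and Krt18 form the basic filament of simple epithelia. Krt8 lay between 5.26 and 6.06 (median 5.81) in FAKi tumours, against 4.54 to 6.99 (median 5.79) in vehicle tumours, and vehicle 1 and vehicle 6 set both ends. Its difference was −0.08 (SE 0.34, 95% interval −0.81 to 0.64), and the second probe gave 0.0099 (SE 0.24). On the second probe vehicle 6 was at 5.66, below vehicle 2 at 5.71, and vehicle 1 was again lowest, at 4.50. Krt18 had the narrowest range, 5.40 to 6.06 (median 5.71) in FAKi tumours, against 4.89 to 6.11 (median 5.65) in vehicle tumours. Its difference was 0.11 (SE 0.23, 95% interval −0.38 to 0.60). The Krt8 and Krt18 levels moved with the overall signal of the array, as given below, and the intervals make no allowance for that.

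Krt20, a keratin of gut and urothelial epithelium that some ductal tumours make, and Krt23, a type I keratin of glandular epithelia, complete the ductal-type group. Krt20 lay between 2.10 and 3.13 (median 2.45) in FAKi tumours, against 0.09 to 3.43 (median 2.64) in vehicle tumours. Vehicle 5 alone was at 0.09, with the next vehicle tumour at 2.17. The difference was 0.17 (SE 0.47), and without vehicle 5 and vehicle 6 it was −0.44. Krt23 lay between 0.64 and 2.11 (median 1.26) in FAKi tumours, against 0.85 to 2.59 (median 1.56) in vehicle tumours, a difference of −0.38 (SE 0.33) with 5 of 6 FAKi tumours below the vehicle mean. Without vehicle 5 and vehicle 6 it was −0.72, with an unadjusted p of 0.0441 and an adjusted p of 0.272 in limma.

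The basal pair Krt5 and Krt14 was measured well above background on all 12 arrays. Krt5, the type II member, lay between −3.04 and −1.75 (median −2.59) in FAKi tumours, against −3.62 to −0.93 (median −2.01) in vehicle tumours. The highest values were those of vehicle 4 (−0.93) and vehicle 3 (−1.24), and the lowest those of vehicle 1 and vehicle 2. The difference was −0.36 (SE 0.43, 95% interval −1.29 to 0.56). Krt14, its type I partner, lay between −1.07 and 2.27 (median 0.26) in FAKi tumours, against 0.11 to 2.53 (median 1.03) in vehicle tumours. FAKi 3 and FAKi 5 were the only tumours below 0, and FAKi 1 and vehicle 6 were the highest of their groups. The difference was −0.81 (SE 0.56, 95% interval −2.01 to 0.39, limma unadjusted p = 0.169), with 5 of 6 FAKi tumours below the vehicle mean. Krt14 was −0.52 without vehicle 6 and −1.21 without FAKi 1, and Krt5 was −0.12 without vehicle 4.

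Krt6a and Krt17 are the basal-type keratins induced by injury. Krt6a was near the limit of the array, well above background in 4 of 6 FAKi and 5 of 6 vehicle tumours. It lay between −6.48 and −3.73 (median −5.30) in FAKi tumours, against −5.98 to −3.19 (median −3.90) in vehicle tumours, and the lowest FAKi values, of FAKi 3 and FAKi 4, were not well above background. Its difference of −0.99 (SE 0.55, 95% interval −2.18 to 0.20) had the smallest unadjusted p of the 10 keratins in limma, 0.0970. Mouse Krt6a has a near copy, Krt6b, and whether the Krt6a probe also reads it was not tested. Krt17 lay between −1.01 and 0.15 (median −0.75) in FAKi tumours, against −1.68 to −0.07 (median −0.70) in vehicle tumours, with a difference of 0.17 (SE 0.33). The order of tumours differed between basal-type keratins, since vehicle 1 and vehicle 2 were lowest for Krt17 and among the 3 highest of their group for Krt14.

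**Figure D2:**
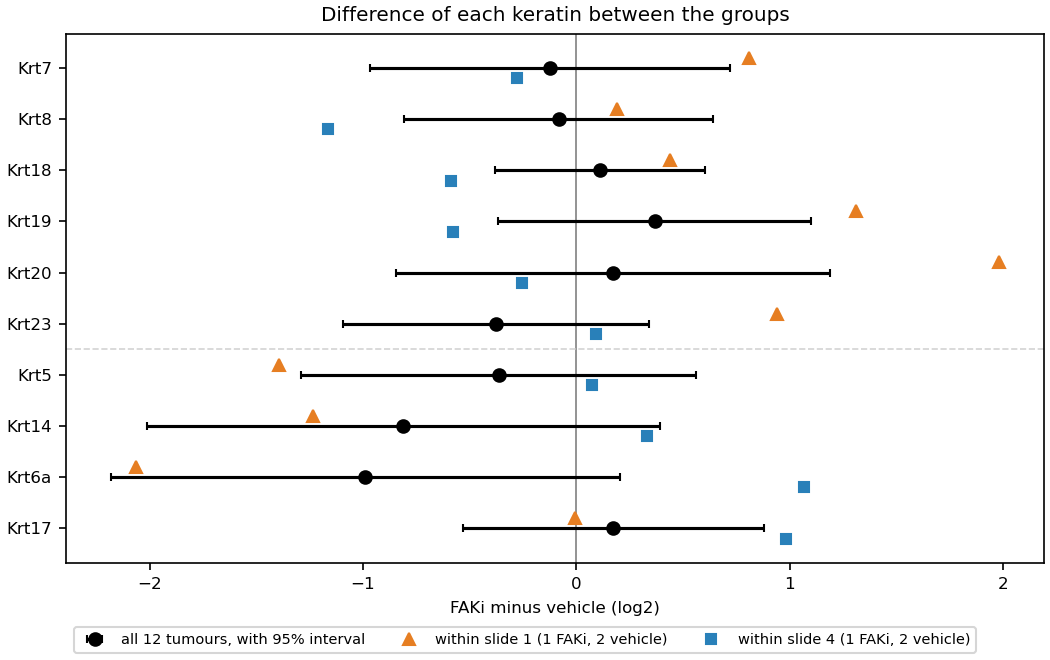
FAKi minus vehicle difference (log2) of the 6 ductal-type keratins (above the dashed line) and the 4 basal-type keratins (below it). Black points are all 12 tumours with 95% intervals, triangles the 3 tumours of slide 1 and squares the 3 tumours of slide 4. Every interval holds 0, and the slides often lie on opposite sides of 0, as for Krt6a at −2.07 and 1.07.

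Slides 1 and 4 are the only ones with both groups, with 1 FAKi and 2 vehicle tumours each, and they gave differences of opposite sign for every keratin but Krt23. Within slide 1 the difference was 1.98 for Krt20, 1.31 for Krt19 and 0.81 for Krt7, and it was −2.07 for Krt6a, −1.39 for Krt5 and −1.23 for Krt14. Within slide 4 it was −0.25, −0.58 and −0.28 for the same ductal-type keratins, and 1.07, 0.07 and 0.33 for the same basal-type keratins. Slide 1 sets FAKi 5 against a pair that holds vehicle 5, and slide 4 sets FAKi 1 against a pair that holds vehicle 6. With slide as a fixed block, which rests on these 6 tumours, the values were −0.50 for Krt6a, −0.45 for Krt14, 0.37 for Krt19 and 0.27 for Krt7, and 0 keratins passed.

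The balance of ductal-type and basal-type keratins was described per tumour by 2 means, each over log2 levels from which the gene's own mean over 12 tumours had been taken. The ductal-type mean lay between −0.31 and 0.54 (median −0.05) in FAKi tumours, against −0.94 to 0.43 (median 0.12) in vehicle tumours. Its members Krt8 and Krt18 moved with the overall signal of the array, as given below. Both were highest in vehicle 6, the dimmest array, and lowest in vehicle 1, the brightest. The ductal-type means of these tumours, 0.11 and −0.19, include that. The FAKi minus vehicle difference of this mean was 0.011, and −0.083 on a quantile scale, described below. The mean without Krt8 and Krt18 was not examined. The basal-type mean lay between −1.03 and 0.66 (median −0.38) in FAKi tumours, against −0.55 to 0.64 (median 0.40) in vehicle tumours. Without Krt6a, which was not well above background on every array, the FAKi minus vehicle difference of this mean was −0.33, against −0.50 with it. Of the 12 tumours, FAKi 3 and FAKi 5 were lowest in basal-type keratins, and vehicle 5 was lowest in ductal-type keratins.

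The ductal-type mean minus the basal-type mean was 0.25 ± 0.91 in FAKi and −0.25 ± 0.77 in vehicle tumours (SD, n = 6 each). It ran from −0.86 (FAKi 1) to 1.32 (FAKi 5) in FAKi tumours, against −1.42 (vehicle 5) to 0.97 (vehicle 2) in vehicle tumours, so that each group held tumours of either sign. The group difference of 0.51 was smaller than the SD within either group and was 0.15 without vehicle 5 and vehicle 6. It was 2.12 within slide 1 and −1.08 within slide 4. Without Krt6a, which was not well above background on every array, the group difference was 0.34. No test was made on these means.

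**Figure D3:**
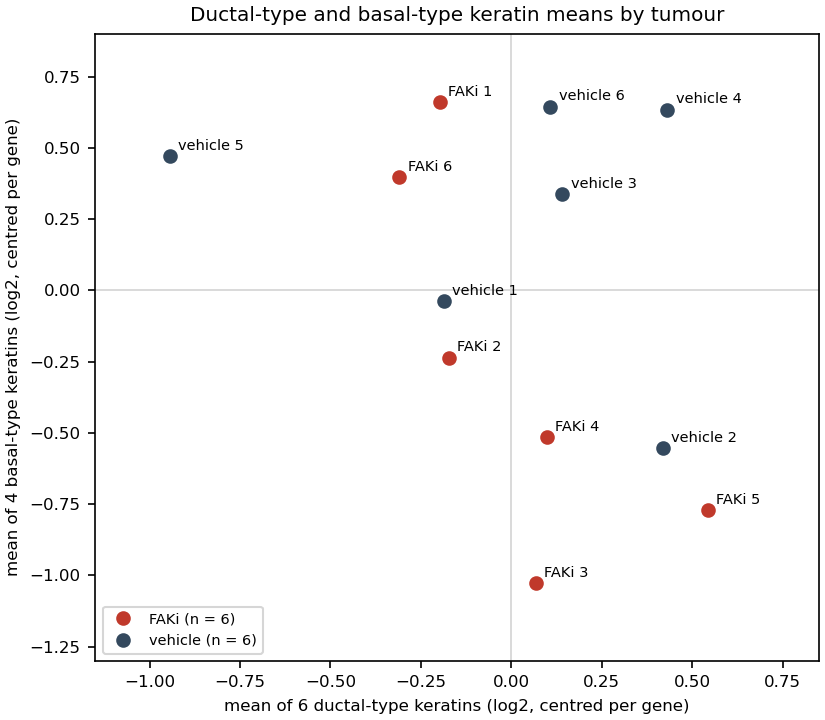
Mean of the 6 ductal-type keratins (x axis) against the mean of the 4 basal-type keratins (y axis) in each tumour, in log2 units centred per gene, with FAKi tumours in red and vehicle tumours in dark blue. FAKi 5 lies at 0.54 and −0.77 and vehicle 5 at −0.94 and 0.47, and both groups occur on each side of 0 on both axes. The x axis includes Krt8 and Krt18, whose levels moved with the overall signal of the array.

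Which keratins varied together was examined for 10 pairs over the 12 tumours, with permutation p-values of 100000 resamples adjusted over the 10. Krt7 and Krt19 had r = 0.75 (rho = 0.73, two-sided permutation p = 0.00491, adjusted p = 0.0245). The relation was r = 0.63 without FAKi 6 and vehicle 5, the tumours farthest out in Krt7, and r = 0.93 for deviations from the slide means (11 tumours, adjusted permutation p = 0.0022). That permutation exchanged the 11 deviations freely, although each slide's mean had been taken from them, so its p-value can be too small. Within FAKi tumours the relation was r = 0.70 (exact permutation p = 0.118, adjusted p = 0.197), and within vehicle tumours r = 0.89 (exact permutation p = 0.0278, adjusted p = 0.174). Without vehicle 5 and vehicle 6 it was r = 0.54, which did not pass (adjusted permutation p = 0.217).

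Krt8 and Krt18, the usual partners in simple epithelia, had r = 0.86 (rho = 0.72, two-sided permutation p = 0.00072, adjusted p = 0.0072). Without vehicle 1 and vehicle 6 this was r = 0.59, and the second Krt8 probe gave r = 0.88. On a quantile scale, where all arrays are given the same distribution of signals, it was r = −0.47 (adjusted permutation p = 0.302), and in the authors' deposited table r = −0.48 (adjusted permutation p = 0.292). The sign of this relation therefore depended on the scale, whereas Krt7 and Krt19 had r = 0.89 on the quantile scale and r = 0.88 in the deposited table.

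The basal pair did not vary together. Krt5 and Krt14 had r = −0.08 (rho = −0.04, two-sided permutation p = 0.815, adjusted p = 0.874), and r = 0.14 without vehicle 3 and vehicle 4. It was r = 0.46 within FAKi tumours (exact permutation p = 0.340) and r = −0.57 within vehicle tumours (exact permutation p = 0.228), and the difference between these was not tested. Krt14 with Krt17 (r = 0.16) and Krt6a with Krt17 (r = 0.09) did not pass either, each with an adjusted permutation p of 0.874. Krt14 and Krt17 had r = −0.57 without FAKi 1 and vehicle 6, so the value near 0 rests on those tumours.

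Of the 3 pairs across the groups of keratins, Krt19 and Krt14 had the strongest relation on the 75th percentile scale, r = −0.42 (rho = −0.62, two-sided permutation p = 0.173, adjusted p = 0.432), and r = −0.58 without vehicle 1 and vehicle 5. For deviations from the slide means it was r = −0.72 (adjusted permutation p = 0.0313), and on the quantile scale r = −0.23. The p-value for the slide deviations has the limit given for Krt7 and Krt19 and can be too small. Krt8 with Krt5 had r = 0.37 and Krt19 with Krt17 r = 0.05. Krt8 with Krt5 had r = 0.68 both on the quantile scale (adjusted permutation p = 0.0514) and in the authors' deposited table (adjusted permutation p = 0.0493), the strongest of the 3 pairs there. Krt18 and Krt19 had r = 0.63 (rho = 0.77, two-sided permutation p = 0.0353, adjusted p = 0.118) and r = 0.76 without vehicle 1 and vehicle 6, and Krt8 with Krt19 had r = 0.25. Without vehicle 5 and vehicle 6 both passed, at r = 0.89 for Krt18 and Krt19 (adjusted permutation p = 0.0011) and r = 0.85 for Krt8 and Krt19 (adjusted permutation p = 0.0041). On the quantile scale with all tumours, r was 0.66 for Krt18 and Krt19 (adjusted permutation p = 0.0514) and −0.29 for Krt8 and Krt19. In the authors' deposited table r was 0.65 for Krt18 and Krt19 (adjusted permutation p = 0.0493). Neither the quantile scale nor the deposited table was examined without vehicle 5 and vehicle 6.

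**Figure D4:**
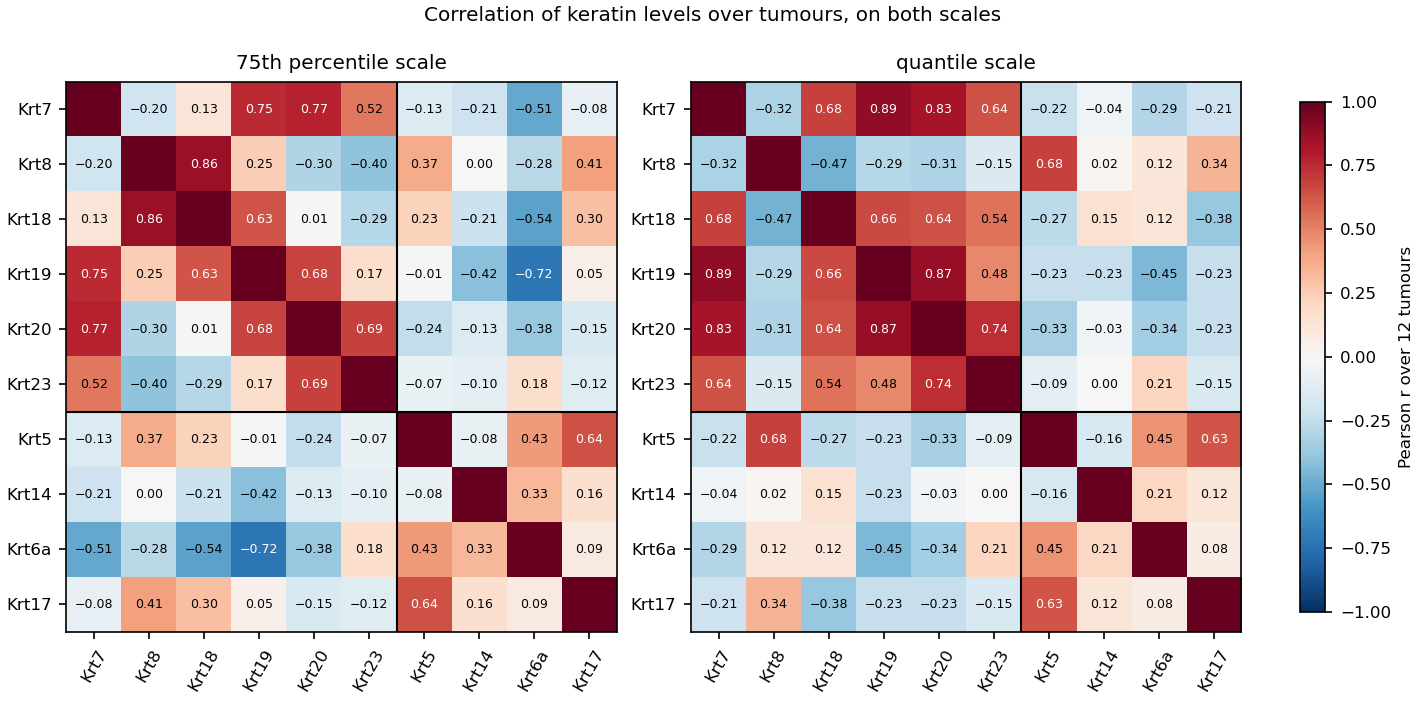
Pearson r between the levels of the 10 keratins over 12 tumours, on the 75th percentile scale (left) and on the quantile scale (right), with black lines between ductal-type and basal-type keratins. Krt7, Krt19, Krt20 and Krt23 have positive r with each other on both scales, and Krt8 with Krt18 turns from 0.86 on the left to −0.47 on the right.

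Over all 45 pairs of the 10 keratins, given as a description with no test, r was above 0 in 11 of 15 pairs within the ductal-type keratins (median 0.25), in 5 of 6 within the basal-type (median 0.25) and in 6 of 24 across (median −0.13). The highest r outside the 10 examined pairs were those of Krt7 and Krt20 (0.77) and of Krt20 and Krt23 (0.69) among the ductal-type keratins, and Krt5 and Krt17 (0.64) among the basal-type. The lowest was that of Krt19 and Krt6a, −0.72. On the quantile scale the medians were 0.64 within the ductal-type, 0.16 within the basal-type and −0.18 across, and 8 of the 24 pairs across the groups changed sign.

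Krt7 and Krt20 are 2 keratins of different type and chromosome that varied together, and their promoters are shown for that reason. Each is the 250 bases before the transcription start, from RefSeq on GRCm38.p6, at chr15:101412153-101412402 on the plus strand for Krt7 and at chr11:99438154-99438403 on the minus strand for Krt20. Capitals mark matches to any of 3 motifs searched on both strands. The motifs were the TATA box spelled TATAAA, the GC box spelled GGGCGG, which reads CCGCCC on the opposite strand, and the AP-1 site spelled TGANTCA.
Krt7: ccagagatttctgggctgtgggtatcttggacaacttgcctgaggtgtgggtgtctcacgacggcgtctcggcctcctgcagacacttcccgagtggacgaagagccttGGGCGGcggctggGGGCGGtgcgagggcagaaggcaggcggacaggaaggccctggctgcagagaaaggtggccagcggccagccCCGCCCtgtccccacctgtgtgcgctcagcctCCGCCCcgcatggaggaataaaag
Krt20: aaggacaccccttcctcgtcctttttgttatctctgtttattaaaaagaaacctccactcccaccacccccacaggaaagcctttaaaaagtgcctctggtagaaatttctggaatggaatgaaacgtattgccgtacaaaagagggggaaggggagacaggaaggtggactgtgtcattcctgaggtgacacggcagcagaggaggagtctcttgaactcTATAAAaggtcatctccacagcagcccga
The Krt7 window held 4 GC boxes and no TATAAA, and the Krt20 window held 1 TATAAA starting at base −29 and no GC box. Neither window held TGANTCA. Among 32841 promoter windows of the same length, 32.7% held a GC box, 12.4% TATAAA and 6.75% TGANTCA. The table held promoters for 7 of the 10 keratins, and those of Krt8, Krt18, Krt23, Krt5 and Krt14 held none of the 3 motifs.

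The levels of Krt8 and Krt18 moved with the overall signal of the array. The r of level with the 75th percentile of the array was −0.94 for Krt8 and −0.76 for Krt18, against −0.13 for Krt19 and 0.33 for Krt7, given with no test because the percentile is part of the level. With quantile-scale levels this r was −0.59 for Krt8 and 0.76 for Krt18, against 0.41 for Krt19 and 0.54 for Krt7. Krt8 signal spanned only 1.65-fold over the 12 arrays, from 355407 to 584743 units or 46.1% to 75.6% of the scanner's saturation value, while the 75th percentile spanned 4.16-fold, or 2.08-fold without vehicle 6. Krt18 signal spanned 2.36-fold, Krt19 4.84-fold, Krt7 5.99-fold and Krt20 15.9-fold. On the quantile scale the SD of Krt8 over tumours was 0.12, against 0.57 on the 75th percentile scale, and that of Krt7 was 0.74 against 0.69. The part of array brightness in the Krt8 and Krt18 values was not tested further.

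**Figure D5:**
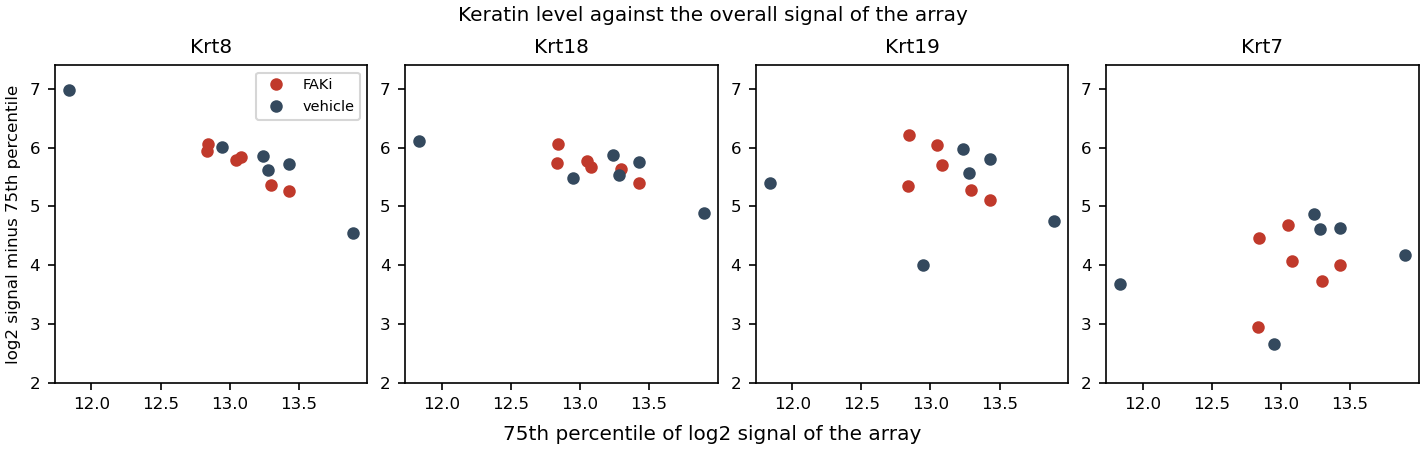
Level of Krt8, Krt18, Krt19 and Krt7 (log2 signal minus 75th percentile, y axis) against the 75th percentile of log2 signal of the same array (x axis), 1 point per tumour, FAKi in red and vehicle in dark blue. By its brightest probe Krt8 lies at 6.99 on the dimmest array, vehicle 6, and at 4.54 on the brightest, vehicle 1, and Krt7 has no such slope. The second Krt8 probe, not drawn, was at 5.66 in vehicle 6 and 4.50 in vehicle 1.

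Among the genes most like Krt8 over the 12 tumours were Ppia, a cyclophilin (r = 0.998), Fau, which encodes a ribosomal protein fused to a ubiquitin-like protein (r = 0.998), Clu, the secreted chaperone clusterin (r = 0.997), the ribosomal protein genes Rps29 and Rpl8, the zinc finger gene Zfp628 and the histone gene H2aj (r = 0.995). Their own r with the 75th percentile lay between −0.96 and −0.93, and 538 of 27240 genes had an r above 0.9 with Krt8. The genes most like Krt5 were Upk3a, a urothelial membrane protein (r = 0.89), and Plin4, a lipid droplet protein (r = 0.87), followed by Snorc, Ces1d, Plin1, Serpina3c, Adig and Havcr1 (r = 0.82). Plin1, the perilipin of adipocytes, had r = −0.19 with Krt5 within FAKi tumours and r = 0.99 within vehicle tumours, over 6 tumours each and with no test.

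The same search was added for Krt7 and Krt14 after the data had been seen. Among the genes most like Krt7 were Stard10, a lipid transfer protein (r = 0.97), the small GTPase gene Rac3 (r = 0.96), Pglyrp1, Crb3, an apical polarity protein (r = 0.95), Pkp3, a desmosomal plaque protein (r = 0.94), Fam187b and Syngr2 (r = 0.93). Each of these also had an r of at least 0.86 on the quantile scale, and 46 genes had an r above 0.9 with Krt7. The gene most like Krt14 was Pi4kb, a phosphatidylinositol kinase (r = 0.89), and 0 genes had an r above 0.9 with Krt14 or Krt5.

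The array held 45 other keratin genes, most of them hair, nail or epidermal keratins. Of these, 28 were well above background on all 12 arrays, 7 on 6 to 11, 9 on 1 to 5 and 1 on none, and 35 passed the filter. In limma 0 of the 35 were called, 23 lay above 0 and 12 below, with a median of 0.16 beside 0.09 over all genes. Those of smallest p were Krt26, a keratin of the hair follicle sheath (0.84, SE 0.36), and Krt79, of the hair follicle opening (−0.68, SE 0.37), each with a limma adjusted p of 0.9995.

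Among the other keratins, Krt85 and Krt81, type II hair keratins, and Krt42, a type I keratin known from mouse nail, followed Krt7. They are named after their values were seen. Their r with Krt7 was 0.91, 0.84 and 0.88, and on the quantile scale 0.95, 0.90 and 0.90. Krt42 lay between 2.77 and 4.54 in FAKi tumours, against 0.69 to 4.07 in vehicle tumours, and vehicle 5 was lowest, as it was for Krt7, Krt19 and Krt20. Krt42 and Krt19 had r = 0.81, and r = 0.98 on the quantile scale. Krt32 also had r = 0.78 with Krt7, and 0.89 on the quantile scale. The highest r of another keratin with Krt14 was that of Krt15, 0.73, and 0.65 on the quantile scale. The Krt32 and Krt15 probes were each well above background on 10 of 12 arrays.

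The Krt85 and Krt81 probes had 51 identical bases over an overlap of 57, so they need not be separate readings. Whether the Krt85, Krt81 or Krt42 probe also reads RNA of another keratin was not tested. The values of these hair and nail keratins are therefore uncertain as levels of their own genes.

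Keratin filaments end at desmosomes and hemidesmosomes, and 0 genes of either list were called in limma. Of 14 measured genes of desmosomes and plakins, 5 lay above 0 and 9 below (median −0.09). Pkp1, a plakophilin of stratified epithelium, gave −1.95 (SE 0.72, limma adjusted p = 0.9995), and Dsg3, a desmosomal cadherin of the basal layer, gave 1.76 (SE 0.69, limma adjusted p = 0.9995). The Dsg3 probe passed the background test in 6 of 6 FAKi and 4 of 6 vehicle tumours. Of 4 hemidesmosome genes 3 lay below 0 (median −0.24), with the integrins Itga6 at −0.36 (SE 0.22) and Itgb4 at −0.19 (SE 0.19). Of 7 other intermediate filament genes 4 lay above 0 (median 0.18), with vimentin (Vim) at 0.27 (SE 0.24) and syncoilin (Sync) at 0.75 (SE 0.82).

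Genes that go with ductal-type and basal-type keratins in tumours also gave 0 calls in limma. Of 13 measured ductal epithelium genes 7 lay above 0 and 6 below (median 0.03), with the chloride channel gene Cftr at −1.23 (SE 0.48) and the claudin gene Cldn7 at −1.59 (SE 0.79). Of 10 basal and squamous genes 4 lay above 0 and 6 below (median −0.17). Sfn, a 14-3-3 protein of epithelia, averaged 0.82 ± 0.32 in FAKi and 1.70 ± 0.47 in vehicle tumours (SD, n = 6 each), a difference of −0.88 (SE 0.25, limma adjusted p = 0.869). Its unadjusted p of 0.00406 in limma was the smallest in these lists.

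The r of ductal epithelium genes with Krt7 had a median of 0.73 over 12 genes with a value on all arrays, with 9 of them above 0 and 7 above 0.7, against a median of −0.18 over 27240 genes, given with no test. Among the highest, named after its value was seen, was Cldn4, a tight junction protein, with r = 0.90. The lowest, likewise named after their values were seen, were Spp1, osteopontin (r = −0.22), Ovol1 (r = −0.18) and the duct transcription factor Sox9 (r = −0.17), and the gut epithelium list had a median r with Krt7 of 0.59. In the basal and squamous list the median r with Krt7 was 0.27, and Serpinb5 (maspin) had r = 0.93. With Krt14 the median r was 0.05 for the ductal and −0.02 for the basal and squamous genes, against 0.10 over all genes, and no gene of these lists passed 0.7.

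Each list value is the mean over its measured genes of log2 levels centred per gene. Vehicle 5, the tumour with the lowest ductal-type keratins, was also lowest in the ductal epithelium list, at −1.41 log2 against −0.45 to 1.05 in the other tumours. Its gut epithelium list was lowest too, at −1.54, and so were lists that are not ductal. These were desmosomes and plakins (−0.80), other keratins (−0.78), acinar (−0.73) and basal and squamous genes (−0.48). The fibroblast and endothelium lists of vehicle 5 were the highest of all tumours, at 0.92 and 1.35. List values were not examined on the quantile scale. Over the groups, the fibroblast list ranged from −0.56 to 0.50 in FAKi tumours, against −0.87 to 0.92 in vehicle tumours, and the leukocyte list from −0.24 to 0.77 in FAKi tumours, against −0.75 to 0.68 in vehicle tumours. The acinar list ranged from −0.04 to 0.56 in FAKi tumours, against −0.73 to 0.24 in vehicle tumours, and all 7 of its measured genes lay above 0 (median 0.42). Epidermal markers ranged from −0.46 to 0.45 in FAKi tumours, against −0.35 to 0.55 in vehicle tumours, with 6 of 7 genes on the array measured. Mesothelial markers ranged from −0.86 to 1.08 in FAKi tumours, against −1.07 to 0.64 in vehicle tumours, and islet markers from −0.54 to 0.37 in FAKi tumours, against −0.75 to 1.84 in vehicle tumours. Skeletal muscle markers had the widest range, −1.60 to 3.96 in FAKi tumours, against −1.61 to 1.84 in vehicle tumours. The part of these cell types in the keratin values was not tested.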

How the data were processed

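One-colour Agilent arrays of 12 tumours were used. Per the file headers, the deposited signal intensity of each spot is the background-subtracted red channel of Agilent Feature Extraction 11.5.1.1. The authors' deposited table of log2 values covered 38569 probes. The submitters' processing notes name limma, and how the table was normalised is not stated there.

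Outlier spots were left out, replicate spots of 1 probe were averaged, and each array's 75th percentile of log2 signal was subtracted. Probes well above background on at least 6 of 12 arrays were kept (40457 probes, 27351 genes), and the probe of highest mean stood for a gene. Groups were compared with limma 3.58.1 in R 4.3.3 (lmFit and eBayes, two-sided), adjusted by the Benjamini-Hochberg method over all genes. The pair correlations and their permutations used numpy 2.4.6, with ranks from scipy 1.17.1. The fit was tested on simulated data.

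The keratins and gene lists were chosen with earlier results of these data known. Beside the keratins, other keratins, the 2 members of smallest p in each list and the 8 genes most like Krt8 and Krt5 were named, and some of the items these rules chose are not reported here. The alternatives covered normalisation, background, centring, filter, probes, slide, weights, replicate block and tumours left out.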

Additional observations from a re-analysis of the deposited data

How the results depend on the processing

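In the 25 other fits across all genes 0 keratins and 0 genes of the related lists were called by limma, and 1 keratin had an unadjusted p under 0.05 in 5 of them. Over all genes 2 were called with array weights, 3 without FAKi 1 (0 to 3 over the fits that leave out 1 tumour) and 0 in the other fits. Of 269 keratin differences under an alternative, 28 had the opposite sign, 11 of them within a slide. With slide as a fixed block Krt7 was 0.27, Krt18 −0.073 and Krt23 0.52. Krt18 was −9.24e-05 by quantile, −0.00083 by normexp and −0.00045 in the authors' deposited table. With array weights Krt8 was 0.094 and Krt20 −0.21, and without vehicle 5 and vehicle 6 they were 0.27 and −0.44. Leaving out 1 tumour gave −0.41 to 0.082 for Krt7, −0.33 to 0.16 for Krt8, −0.034 to 0.21 for Krt18, −0.28 to 0.39 for Krt20 and −8.12e-05 to 0.32 for Krt17. The ductal-type mean was 0.95 within slide 1 and −0.46 within slide 4, the basal-type mean −1.17 and 0.61, and their difference 2.12 and −1.08. Of the 10 pairs, 4 passed for deviations from slide means and 1 on the quantile scale. The 4 came from permutations that did not allow for the slide means taken out, so their p-values can be too small. In the authors' deposited table Krt7 with Krt19 (adjusted permutation p = 0.0019), Krt18 with Krt19 and Krt8 with Krt5 (each 0.0493) passed. On the quantile scale and in the deposited table r was −0.47 and −0.48 for Krt8 and Krt18, −0.29 and −0.28 for Krt8 and Krt19, and −0.23 in both for Krt19 and Krt17. Without vehicle 5 and vehicle 6 r was −0.046 for Krt14 and Krt17. The cause of these changes was not tested.

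The labels do not say whether replicate numbers pair the tumours. Same-numbered deviations had r from −0.12 to 0.48, and 1 of 6 numbers matched itself best. Such correlations cannot decide whether tumours were paired. With the replicate block 0 genes and 0 keratins were called in limma, and Krt14 stayed at −0.81 (unadjusted p = 0.0422, adjusted p = 0.813). The SE of Krt14 was 0.34 with the block, against 0.56 without it. Leaving out 1 tumour gave −1.21 (without FAKi 1) to −0.52 (without vehicle 6) for Krt14, −1.33 (without vehicle 2) to −0.75 (without FAKi 3) for Krt6a and −0.65 (without vehicle 1) to −0.12 (without vehicle 4) for Krt5, and Krt6a was −0.52 with normexp. Probes near background, such as Krt6a, limit what these arrays show.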
